A study of Homo sapiens with 12 samples.

Results

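The genes described here encode the nuclear share of the mitochondrial respiratory chain, the mitochondrial ribosome and the protein import channels. They were taken from a table of 4988 mRNA genes by name. A gene was included when its symbol began with NDUF, COX or COA and a digit, UQCR, SDHA to SDHD, ATP5, MRPL or MRPS and a digit, TIMM or TOMM, which gave 36 genes. Total RNA was sequenced from xenograft tumours of Hep3B, a line from a human liver cancer, with 3 libraries in the bufotalin group and 3 in the control group. Bufotalin is a bufadienolide of toad venom. The labels give no dose, time or host animal and do not say whether replicates are separate animals, so the p-values measure only the spread between these libraries, which may be technical.

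The respiratory chain passes electrons from NADH and succinate to oxygen through complexes I to IV of the inner mitochondrial membrane, and ATP synthase uses the resulting proton gradient. Mitochondrial DNA encodes a few core subunits, which are translated on mitochondrial ribosomes. All other subunits, the assembly factors and all proteins of the mitochondrial ribosome are encoded in the nucleus, made in the cytosol and imported through the TOM complex of the outer membrane and the TIM complexes of the inner membrane. Liver cells are rich in mitochondria.

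The authors listed in the mRNA table only genes they had selected as different on these same libraries, so no count below is independent evidence of a treatment effect. Of 222 protein-coding genes in RefSeq whose symbols fit the name rule, 36 (16.2%) were in the table, against 24.3% of all 20056 protein-coding genes. The share was highest for TIMM (7 of 16 genes, 43.8%) and lowest for NDUF (2 of 46 genes, 4.35%). Both listed NDUF genes are assembly factors, and 0 of 38 genes named as complex I subunits (NDUFA, NDUFB, NDUFC, NDUFS or NDUFV with a number, and NDUFAB1) were listed in the table as used here.

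Most of the 36 genes were higher in bufotalin tumours, where, as in any whole tissue, fewer cells of a type and less RNA per cell cannot be told apart. limma on log2(FPKM + 1), with Benjamini-Hochberg adjustment over all 4273 genes tested and a threshold of 0.05, called 26 of the 36 higher and 4 lower and left 6 without a call. In the same test 44.3% of all genes were called higher and 48.8% lower, 93.2% in all. Calling 30 of 36 genes (83.3%) is thus nothing particular to the set, while 72.2% of the set were higher and 11.1% lower. On the log2 scale the median difference of bufotalin from control libraries was 0.63 for the set and 0.13 for all genes tested. The genes tested form a cloud above 0 and another below it. Their median lies between the clouds and stands for no typical gene, and it was 0.07 for genes outside the set. Values of bufotalin and control libraries did not overlap for 28 of the 36 genes, 24 of them higher and 4 lower, against 92.5% of all genes tested, 43.8% higher and 48.7% lower. The ratio of group means was at least 2 for 8 of the 36 genes (22.2%), against 10.9% of all genes tested, and at most 0.5 for 2 of the 36 (5.56%), against 38.7%. All 36 genes passed the minimum mean of 0.5 FPKM that the test required.

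**Figure D1:**
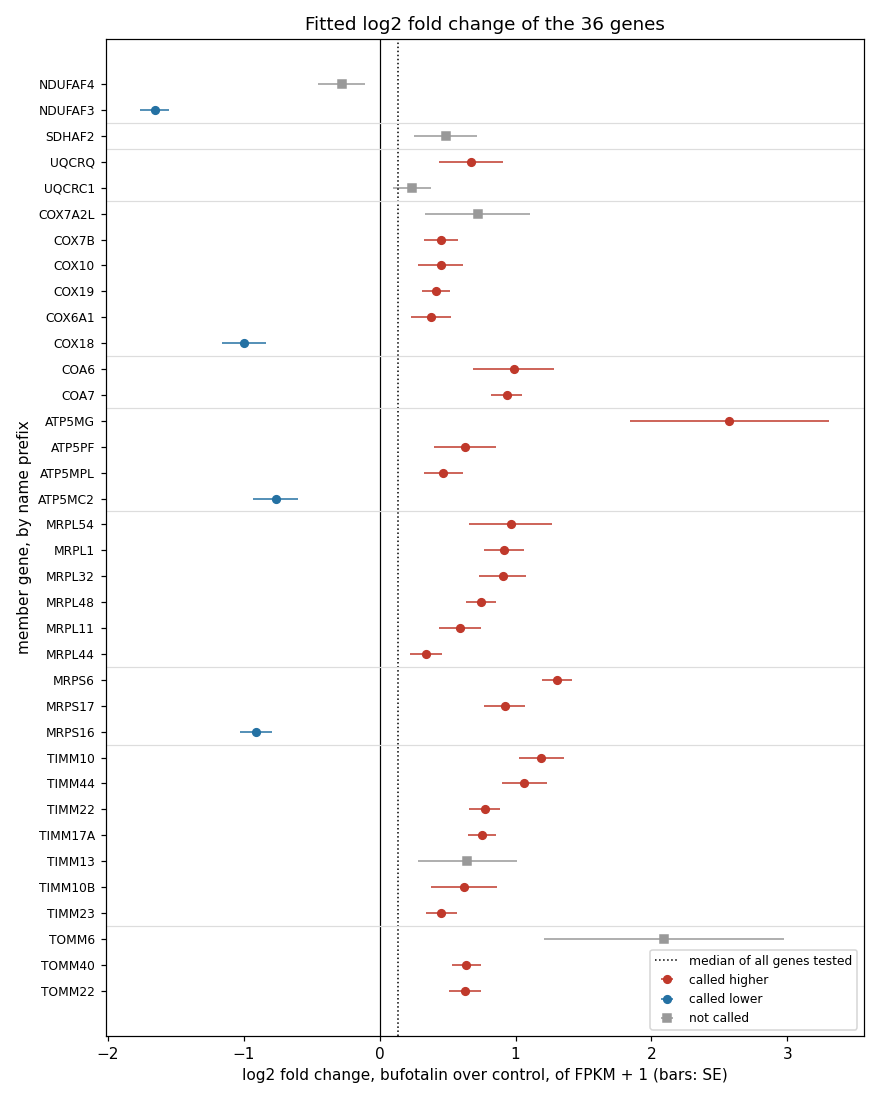
limma's log2 fold change (bufotalin over control, on log2(FPKM + 1)) for each of the 36 genes, ordered by name prefix, with SE bars, coloured by call. Of the genes, 31 lie to the right of 0, and NDUFAF3, COX18, ATP5MC2 and MRPS16 are the 4 called lower. The dotted line is the median of all genes tested, 0.13.

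The summed FPKM of the 36 genes was 1765, 1751 and 1593 in bufotalin replicates 1, 2 and 3, and 1266, 1249 and 1053 in control replicates 1, 2 and 3. These sums were 1.40% to 1.48% of the listed FPKM in bufotalin libraries and 1.03% to 1.21% in control libraries. Control replicate 3 had the lowest value of its group for 22 of the 36 genes, while it was lowest for 29.2% of all genes tested. Without control replicate 3, the calls in the set were 21 higher and 4 lower and the median log2 fold change was 0.58. COX6A1 and UQCRC1 had the highest FPKM of the set, a unit that is per length, while COX18 had the lowest mean in bufotalin libraries (1.24) and TIMM10B the lowest in control libraries (2.23).

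**Figure D2:**
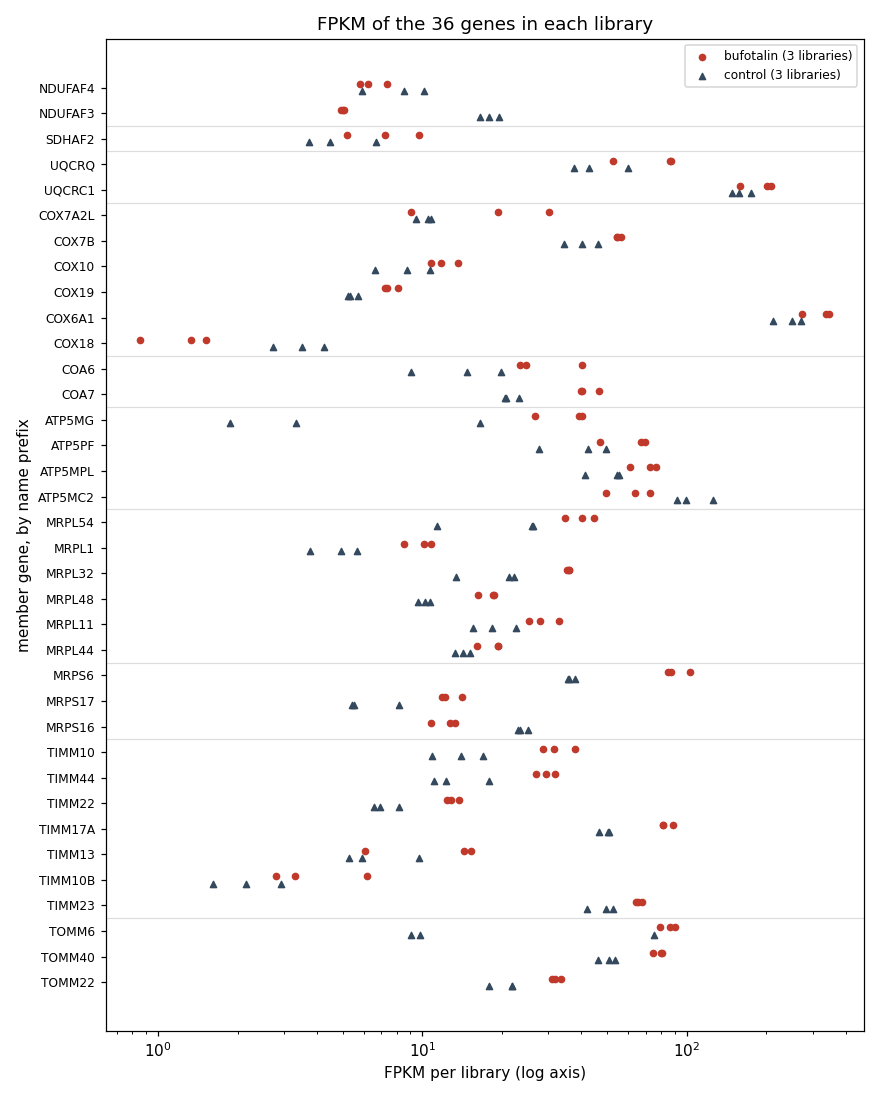
FPKM of each gene in each library on a log axis, with bufotalin libraries as circles above control libraries as triangles. Groups do not overlap for 28 of the 36 genes, and the control points of ATP5MG and TOMM6 lie far apart.

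Complex I was represented by NDUFAF3 and NDUFAF4, factors that act together in its assembly. NDUFAF3 (chromosome 3, 49020459 to 49029706, GRCh38) had 4.91, 5.07 and 5.02 FPKM in bufotalin replicates 1, 2 and 3, against 19.5, 16.6 and 17.8 FPKM in control replicates 1, 2 and 3. The bufotalin values lay within a narrow band and far below every control value. It fell by 1.66 on the log2 scale (SE 0.11, limma adjusted p = 2.08e-06), the most of the set. The listed locus of NDUFAF3 is 3.04 times as long as its RefSeq gene and also covers DALRD3 and IMPDH2, the enzyme of guanine nucleotide synthesis. DALRD3 averaged 5.82 ± 1.37 FPKM in bufotalin and 16.2 ± 3.61 FPKM in control libraries, and IMPDH2 averaged 108 ± 9.29 and 186 ± 8.04 FPKM in bufotalin and control libraries (SD, n = 3 each). Both were called lower too, and whether reads of one count towards another was not tested.

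NDUFAF4 had 5.79, 6.24 and 7.32 FPKM in bufotalin libraries and 5.89, 10.1 and 8.56 FPKM in control libraries. The groups overlapped and the difference was not called (log2 fold change -0.28, SE 0.18, limma adjusted p = 0.147). Without control replicate 1 it was called (-0.47), and it was 0.02 under quantile normalization.

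Complex II was represented by SDHAF2, which attaches flavin to the catalytic subunit. SDHAF2 had 7.20, 9.70 and 5.19 FPKM in bufotalin libraries and 4.46, 3.73 and 6.67 FPKM in control libraries. Bufotalin replicate 3 lay below control replicate 3, and there was no call (log2 fold change 0.49, SE 0.23, limma adjusted p = 0.0702). Leaving out bufotalin replicate 3 or control replicate 3 gave 0.68 with a call each time, and quantile normalization gave 0.90.

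Complex III, which passes electrons to cytochrome c, was represented by the core subunit UQCRC1 and the small subunit UQCRQ. UQCRQ had 86.4, 87.2 and 52.7 FPKM in bufotalin libraries and 60.0, 42.7 and 37.4 FPKM in control libraries. It rose (log2 fold change 0.67, SE 0.23, limma adjusted p = 0.0226), although bufotalin replicate 3 lay below control replicate 1. This call was lost under quantile normalization (0.38) and without bufotalin replicate 1 or 2 or control replicate 2 or 3 (0.53 to 0.62). The listed locus of UQCRQ also overlaps GDF9. UQCRC1 had 202, 208 and 159.8 FPKM in bufotalin libraries and 148, 158 and 175 FPKM in control libraries. Its groups overlapped and there was no call (0.24, SE 0.14), but it was called without bufotalin replicate 3 (0.36) and after scaling to equal medians (0.43), and was -0.11 under quantile normalization.

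Complex IV, cytochrome c oxidase, had 8 listed genes, 6 named COX and 2 named COA. COX6A1 and COX7B encode subunits of the enzyme, COX7A2L a factor that joins complexes III and IV into supercomplexes, and the others encode assembly factors. The COX genes had a median log2 fold change of 0.43, with 4 called higher, 1 lower and 1 without a call. Of all genes tested, 44.3% were called higher and 48.8% lower. COX6A1, the most abundant gene of the set, averaged 319 ± 39.6 FPKM in bufotalin and 245 ± 29.6 FPKM in control libraries (SD, n = 3 each). Its call (0.38) was lost without bufotalin replicate 1 or 2 or control replicate 1 or 3, and the value was -0.08 under quantile normalization.

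COX7B had 56.4, 54.6 and 54.7 FPKM in bufotalin libraries and 40.3, 46.3 and 34.5 FPKM in control libraries. Its groups did not overlap and it was called higher (0.45, SE 0.12), except under quantile normalization (0.19). COX7A2L had 19.3, 9.05 and 30.2 FPKM in bufotalin libraries and 10.5, 10.8 and 9.50 FPKM in control libraries. Bufotalin replicate 2 lay below all control values while the other bufotalin libraries lay above them, so there was no call (0.72, SE 0.39). Without bufotalin replicate 2 the value was 1.16 and called, and without bufotalin replicate 3 it was 0.34. The listed locus of COX7A2L is 3.71 times as long as the RefSeq gene and covers parts of EML4 and KCNG3.

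The assembly factors of complex IV did not all move one way. COX18, which inserts part of the mitochondrially encoded subunit MT-CO2 into the inner membrane, had 1.33, 1.52 and 0.856 FPKM in bufotalin libraries and 3.50, 2.72 and 4.23 FPKM in control libraries. It fell by 1.00 on the log2 scale (SE 0.16, limma adjusted p = 0.000276), with no overlap between groups. At this low level the value depends on the scaling, and it was -0.29 without a call under quantile normalization. The copper-handling factors COX19 and COA6 rose, as did COA7 and COX10, which makes the haem O precursor of the enzyme's haem A.

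COA7 had 40.1, 39.9 and 46.5 FPKM in bufotalin libraries and 20.6, 20.8 and 23.3 FPKM in control libraries. The replicates lay close together and COA7 rose by 0.94 on the log2 scale (SE 0.11, limma adjusted p = 4.84e-05), a call kept in all 12 alternatives. COA6 had 24.6, 40.2 and 23.4 FPKM in bufotalin libraries and 14.7, 19.9 and 9.10 FPKM in control libraries, with no overlap but a wide spread (0.99, SE 0.30). COX19 and COX10 had smaller values, 0.41 and 0.45. COX19 had 0.81 under quantile normalization, and the call of COX10 was lost when replicate numbers entered the fit as a block (0.45), and without bufotalin replicate 1 or 3 or control replicate 3 (0.28 to 0.46). The listed locus of COX19 is 7.18 times as long as its RefSeq gene and covers ADAP1, which was called lower (-0.98).

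**Figure D3:**
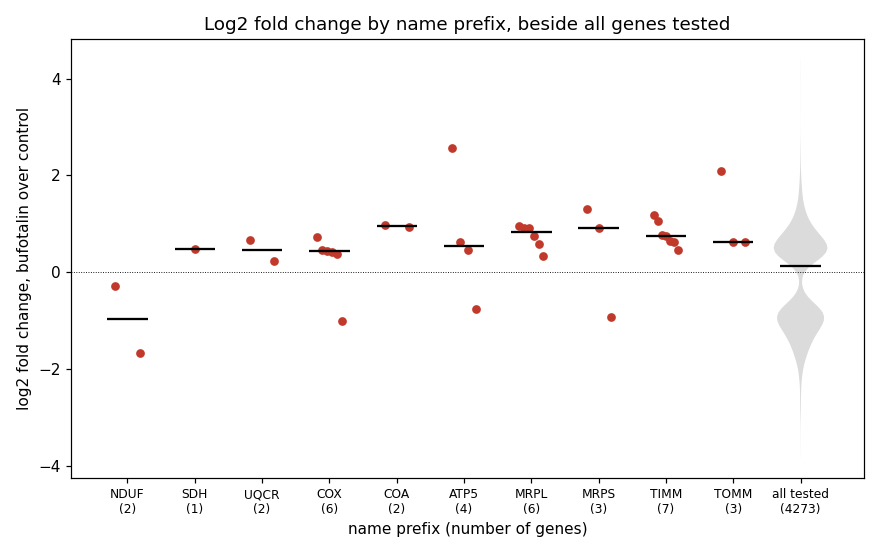
Log2 fold change of bufotalin over control by name prefix, with each gene as a point and the class median as a bar, beside the distribution of all 4273 genes tested. All tested genes form a cloud above 0 and another below it. The class medians run from -0.97 (NDUF) to 0.96 (COA).

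ATP synthase had 4 listed genes, 3 of them called higher and 1 lower, against 44.3% and 48.8% of all genes tested. ATP5MC2, which encodes the subunit of the rotating membrane ring, had 49.6, 63.5 and 72.8 FPKM in bufotalin libraries and 125, 99.6 and 92.2 FPKM in control libraries. All bufotalin values lay below all control values, and it fell by 0.77 on the log2 scale (SE 0.17, limma adjusted p = 0.0018). This call was kept in all 12 alternatives. ATP5MC2 has processed pseudogenes and close paralogs, so the assignment of its reads is uncertain.

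ATP5PF, of the stalk that holds the enzyme's head still, had 67.3, 46.9 and 69.6 FPKM in bufotalin libraries and 42.4, 49.6 and 27.7 FPKM in control libraries. Bufotalin replicate 2 lay below control replicate 2. The call (0.62, SE 0.23, limma adjusted p = 0.0271) was lost under quantile normalization (0.37), with that block (0.62), and without bufotalin replicate 1 or 3 or control replicate 3 (0.39 to 0.55). The listed locus of ATP5PF overlaps GABPA and JAM2. ATP5MPL, a small membrane subunit now named ATP5MJ, averaged 70.0 ± 7.90 FPKM in bufotalin and 50.6 ± 7.98 FPKM in control libraries (0.47), and was not called under quantile normalization (0.17).

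ATP5MG, which helps ATP synthase form dimers, had 40.2, 26.8 and 39.1 FPKM in bufotalin libraries and 3.34, 16.5 and 1.87 FPKM in control libraries. It had the largest fitted value of the set (2.57, SE 0.73, limma adjusted p = 0.0206). Its control libraries differed 8.82-fold among themselves, control replicate 2 standing apart from the other two. The call was lost without bufotalin replicate 2 or 3 or control replicate 1 or 3 (2.04 to 2.76). The listed locus is 3.63 times as long as the RefSeq gene. In all, 10 of the 36 listed loci were over 1.5 times the RefSeq length, and 10 overlapped another protein-coding gene. The long loci include those of MRPL32 (3.02 times), ATP5MC2 (2.75 times) and COA6 (2.44 times), and the locus of TIMM22 overlaps ABR.

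All 6 large-subunit proteins of the mitochondrial ribosome in the table were called higher, with no overlap between groups. In the whole table, 43.8% of genes tested were higher with no overlap. The log2 fold changes of the MRPL genes ran from 0.34 to 0.96 with a median of 0.83. MRPL32, whose protein is trimmed by an inner membrane protease before it joins the ribosome, had 35.8, 35.3 and 35.8 FPKM in bufotalin libraries and 21.2, 22.2 and 13.5 FPKM in control libraries (0.91, SE 0.17, limma adjusted p = 0.00081). MRPL1 had 8.49, 10.8 and 10.2 FPKM in bufotalin libraries and 4.91, 5.67 and 3.74 FPKM in control libraries (0.92, SE 0.15). These calls were kept in all 12 alternatives, as were those of MRPL11 and MRPL48.

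MRPL54 had 40.3, 44.8 and 34.6 FPKM in bufotalin libraries and 26.2, 26.0 and 11.3 FPKM in control libraries. Control replicate 3 stood apart, and without it the value was 0.58 in place of 0.96, still called. The MRPL54 call was lost without bufotalin replicate 1 or 2 (0.95 and 0.88) and under quantile normalization (0.85). MRPL44 averaged 18.3 ± 1.88 FPKM in bufotalin and 14.2 ± 0.893 FPKM in control libraries (SD, n = 3 each), the smallest change among them (0.34). Its call was lost without bufotalin replicate 1 or 2 or control replicate 3, at 0.30 each time, and its value was 0.52 after scaling to equal medians. MRPL11 has a listed locus that covers PELI3, which was called lower (-0.99).

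The small subunit was split. MRPS6 (chromosome 21, 34073224 to 34143034) had 103, 85.3 and 87.0 FPKM in bufotalin libraries and 35.6, 37.8 and 36.004 FPKM in control libraries. Every bufotalin value was above every control value by more than the spread of either group, and MRPS6 rose by 1.30 on the log2 scale (SE 0.11, limma adjusted p = 7.43e-06), between 1.04 and 1.49 in the 12 alternatives. The locus of MRPS6 also holds SLC5A3, an inositol transporter gene, and a share of its reads in MRPS6 was not tested. MRPS17 had 11.9, 14.1 and 12.2 FPKM in bufotalin libraries and 5.40, 8.14 and 5.50 FPKM in control libraries (0.92, SE 0.15).

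MRPS16 (chromosome 10, 73248843 to 73252693), by contrast, had 12.8, 13.2 and 10.8 FPKM in bufotalin libraries and 23.5, 22.9 and 25.2 FPKM in control libraries. MRPS16 fell by 0.91 on the log2 scale (SE 0.12, limma adjusted p = 6.16e-05). The calls of all 3 MRPS genes were kept in all 12 alternatives. A noncoding transcript of the same gene, MRPS16-203, was listed at 0 FPKM in all 3 bufotalin libraries and at 1.96, 1.18 and 1.05 FPKM in control libraries in the authors' lncRNA table.

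**Figure D4:**
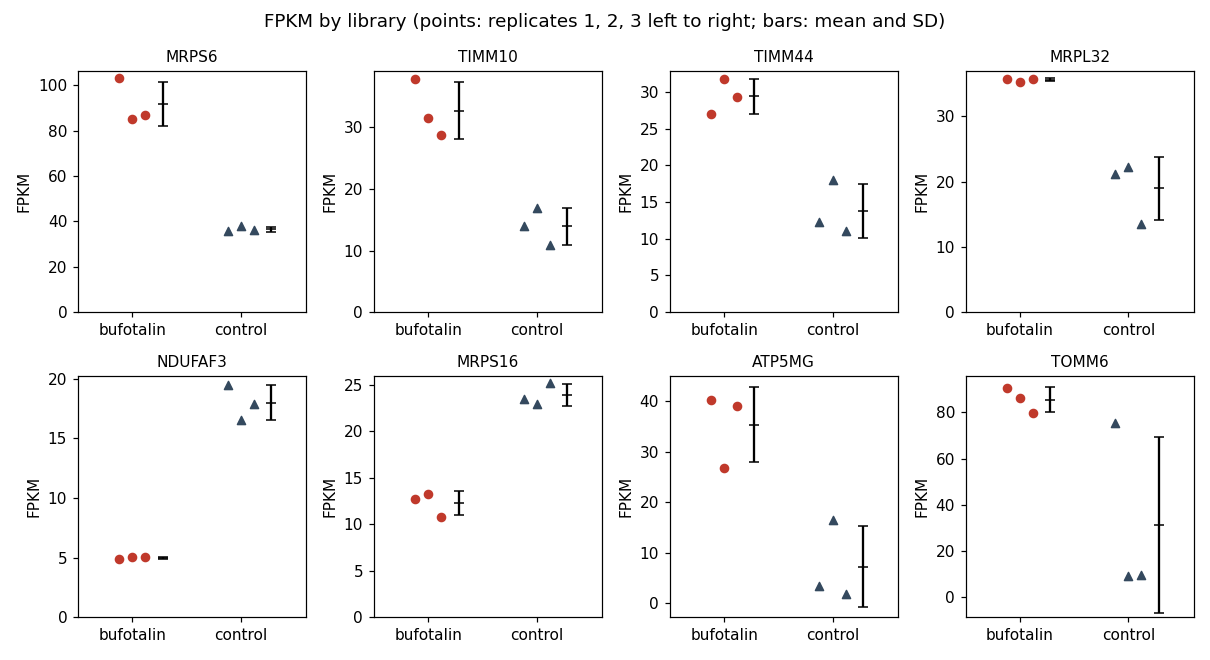
FPKM by library for 8 genes, with points for replicates 1, 2 and 3 from left to right and bars for mean and SD (n = 3). MRPS6, TIMM10, TIMM44 and MRPL32 were higher and NDUFAF3 and MRPS16 lower in bufotalin libraries. In ATP5MG control replicate 2 (16.5 FPKM), and in TOMM6 control replicate 1 (75.4 FPKM), stood apart from the other controls.

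Import genes named TIMM or TOMM were the most fully listed group, and none of the 10 was called lower, against 48.8% of all genes tested. Of the 7 TIMM genes 6 were called higher, against 44.3% of all genes tested, with a median log2 fold change of 0.75. Of 5 other import and folding genes in the table, described below, 2 were called higher and 2 lower. TIMM10, a chaperone that carries membrane proteins across the intermembrane space, had 37.8, 31.6 and 28.7 FPKM in bufotalin libraries and 13.96, 16.9 and 10.9 FPKM in control libraries (1.19, SE 0.17, limma adjusted p = 0.000114). TIMM44, which holds the import motor to the inner membrane channel, had 27.0, 31.8 and 29.3 FPKM in bufotalin libraries and 12.3, 17.9 and 11.1 FPKM in control libraries (1.06, SE 0.17). Neither gene had overlapping groups, and both calls were kept in all 12 alternatives.

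TIMM22, the channel for carrier proteins, had 13.7, 12.8 and 12.4 FPKM in bufotalin libraries and 6.56, 6.93 and 8.17 FPKM in control libraries (0.77, SE 0.11). TIMM17A and TIMM23, of the channel for proteins with a presequence, averaged 84.0 ± 4.29 and 65.9 ± 1.95 FPKM in bufotalin libraries and 49.4 ± 2.31 and 48.1 ± 5.48 FPKM in control libraries (SD, n = 3 each). Quantile normalization gave TIMM17A 0.46 in place of 0.75 and ended the call of TIMM23 (0.18 in place of 0.45). TIMM23 has a near-identical copy, TIMM23B, so its reads are uncertain.

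The other small chaperones varied more. TIMM10B was called higher (0.62), but not without bufotalin replicate 2 (0.35) or control replicate 1 or 2 (0.48 and 0.61), and it had 1.25 under quantile normalization. TIMM13 had 14.4 and 15.3 FPKM in bufotalin replicates 1 and 2 and 6.06 FPKM in replicate 3, against 5.25, 5.91 and 9.73 FPKM in control libraries, and was not called (0.64, SE 0.36). Without bufotalin replicate 3 it had 1.03 with a call, and under quantile normalization 0.91. The TIMM13 locus overlaps TMPRSS9, which was called lower (-1.62).

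In the outer membrane, TOMM40 forms the import pore and TOMM22 is a receptor. TOMM40 had 81.0, 74.9 and 79.8 FPKM in bufotalin libraries and 50.9, 53.7 and 46.2 FPKM in control libraries (0.64, SE 0.11, limma adjusted p = 0.000367). TOMM22 had 31.8, 33.5 and 31.0 FPKM in bufotalin libraries and 21.8, 21.8 and 17.9 FPKM in control libraries (0.63, SE 0.12). Under quantile normalization TOMM40 had 0.34 and TOMM22 had 0.53, both still called.

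TOMM6, a small subunit that steadies the TOM complex, had 90.4, 86.3 and 79.6 FPKM in bufotalin libraries and 75.4, 9.04 and 9.83 FPKM in control libraries. Control replicate 1 lay just below the bufotalin values and the other controls far below, so the fitted value of 2.09 had an SE of 0.88 and was not called (limma adjusted p = 0.071). It was called without control replicate 1 (3.05), after scaling to equal medians (2.27), and at 2.09 both without trend and with the replicate block. Its locus overlaps USP49.

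Promoter sequences were looked at because most of the set moved one way. RefSeq (GRCh38.p14) gave 45 start windows for the 36 genes, each 250 bases before to 50 bases after a start. These were searched on both strands for TGCGCATGC and its looser form TGCGCNTGC (letters of NRF1 sites), CCGGAAG (letters of ETS sites, which the GABPA factor binds), AAGATGGCG (YY1) and TCAAGGTCA (oestrogen-related receptors). In other studies NRF1, GABPA and YY1 are known regulators of genes for the respiratory chain. CCGGAAG was in 37.8% of the windows of the set, in 15.9% of the 5013 windows of genes tested and in 10.3% of all 35116 windows. TGCGCATGC was in 11.1%, 2.35% and 1.56%, TGCGCNTGC in 13.3%, 7.52% and 4.55%, and AAGATGGCG in 11.1%, 2.99% and 1.75% of the same sets. Windows of a gene can overlap, so a site can be counted more than once. The 5 windows of the set with AAGATGGCG belong to 4 genes, and the 2 windows of ATP5PF share the same site. TCAAGGTCA was in none of the windows of the set and in 0.18% of those of genes tested.

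By gene, CCGGAAG was found for 11 of the 26 genes called higher, 1 of the 4 called lower and 4 of the 6 without a call. The GC content of the windows had a median of 62.7% in the set and 65.3% in genes tested. A match says only that the letters are there. The 250 bases before a start are printed, 5′ to 3′ on the strand of the gene, for 5 genes that carry matches. Capitals mark the motif letters, which may stand on either strand. They are TIMM10 (chr11:57530755-57531004, minus strand) and COX10 (chr17:14069254-14069503, plus strand), each with 2 ETS matches, MRPL32 (chr7:42932126-42932375, plus strand), with YY1 and NRF1 letters, ATP5PF (chr21:25734905-25735154, minus strand), with YY1 and ETS letters, and ATP5MC2 (chr12:53676331-53676580, minus strand), with NRF1 letters. The first 4 were called higher and ATP5MC2 lower.
TIMM10: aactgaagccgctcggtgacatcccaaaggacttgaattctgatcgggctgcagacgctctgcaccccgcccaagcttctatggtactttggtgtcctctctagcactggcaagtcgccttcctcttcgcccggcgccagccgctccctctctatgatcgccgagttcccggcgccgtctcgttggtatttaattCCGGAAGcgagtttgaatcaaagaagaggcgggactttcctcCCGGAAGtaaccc
COX10: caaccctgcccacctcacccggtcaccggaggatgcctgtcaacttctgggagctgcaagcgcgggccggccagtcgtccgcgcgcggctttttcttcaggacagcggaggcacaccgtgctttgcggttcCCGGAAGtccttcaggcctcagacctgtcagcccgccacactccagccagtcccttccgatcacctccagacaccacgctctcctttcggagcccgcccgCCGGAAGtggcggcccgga
MRPL32: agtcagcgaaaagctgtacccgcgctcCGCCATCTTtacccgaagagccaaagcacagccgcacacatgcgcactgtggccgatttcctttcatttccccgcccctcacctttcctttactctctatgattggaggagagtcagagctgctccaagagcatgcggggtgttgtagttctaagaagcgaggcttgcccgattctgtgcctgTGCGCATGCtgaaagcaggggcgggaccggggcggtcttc
ATP5PF: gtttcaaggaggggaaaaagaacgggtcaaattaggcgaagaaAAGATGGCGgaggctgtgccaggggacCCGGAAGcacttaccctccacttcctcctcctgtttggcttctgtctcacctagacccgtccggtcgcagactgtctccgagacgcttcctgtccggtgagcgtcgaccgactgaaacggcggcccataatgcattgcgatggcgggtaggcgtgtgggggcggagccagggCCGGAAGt
ATP5MC2: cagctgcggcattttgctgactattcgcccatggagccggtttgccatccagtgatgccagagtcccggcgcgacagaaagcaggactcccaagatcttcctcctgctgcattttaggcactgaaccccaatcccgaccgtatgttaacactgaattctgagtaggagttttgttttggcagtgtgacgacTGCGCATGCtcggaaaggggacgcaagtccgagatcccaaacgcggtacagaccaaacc

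In TIMM10 the ETS letters begin 55 and 13 bases before the start, and in COX10 they begin 119 and 19 bases before it. The YY1 letters of COX10 lie 28 bases after the start, outside the stretch shown. The NRF1 letters begin 40 bases before the start in MRPL32 and 59 bases before 1 of the 3 starts of ATP5MC2. By gene, TGCGCATGC was found for 2 of the 26 genes called higher, 1 of the 4 called lower and 2 of the 6 without a call.

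Regulators of mitochondrial genes were read from a list of 16, of which 9 were in the table, 7 called higher and 2 lower. Of all genes tested 93.2% were called, 44.3% higher and 48.8% lower. Being called is thus nothing particular to this list or to the related lists below. TFB2M, a factor that starts mitochondrial transcription, averaged 40.5 ± 4.94 FPKM in bufotalin and 17.1 ± 0.443 FPKM in control libraries (SD, n = 3 each). TFAM, which packs mitochondrial DNA and activates its transcription, averaged 38.8 ± 4.74 FPKM in bufotalin and 19.7 ± 1.30 FPKM in control libraries. TFB1M, which methylates mitochondrial ribosomal RNA, averaged 2.43 ± 0.153 FPKM in bufotalin and 5.65 ± 0.76 FPKM in control libraries and fell (-0.95, and -0.36 under quantile normalization). NRF1 and GABPA themselves were on the list but not in the table. Of the partners of GABPA, GABPB2 was called lower (-0.81, and -0.28 under quantile normalization) and GABPB1 higher (0.45), each in all 12 alternatives. YY1 was called higher (0.70), but not under quantile normalization (0.41).

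Among 35 listed factors of oxidative phosphorylation outside the name rule, 13 were in the table, 7 called higher and 6 lower. All 13 were called, against 93.2% of all genes tested (44.3% higher and 48.8% lower). The 3 with the smallest p were all lower. NUBPL, an iron-sulfur factor of complex I, averaged 1.63 ± 0.108 FPKM in bufotalin and 4.29 ± 0.435 FPKM in control libraries. DMAC1, another complex I assembly factor, averaged 2.59 ± 0.347 FPKM in bufotalin and 6.47 ± 0.928 FPKM in control libraries. BCS1L, which completes complex III, averaged 5.50 ± 0.307 FPKM in bufotalin and 10.1 ± 1.81 FPKM in control libraries. Under quantile normalization NUBPL had -0.33 and DMAC1 -0.51, and -1.003 and -1.05 without it, and both were still called. ACAD9, also a factor of complex I assembly, was called lower too (-0.70), a call kept in all 12 alternatives. Complex I assembly genes of this list did not all move one way, since TMEM126B (0.49) and DMAC2 (0.31) were called higher. Quantile normalization ended both of these calls, as did leaving out some single libraries.

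Of 28 other genes of the mitochondrial ribosome and its translation, 9 were in the table, 6 called higher and 3 lower. All 9 were called, against 93.2% of all genes tested (44.3% higher and 48.8% lower). MRM1, a ribosomal RNA methyltransferase, fell by 0.98 on the log2 scale and the initiation factor MTIF2 fell by 0.85, while the release factor MTRF1L rose by 0.67. MRM1 had -0.34 under quantile normalization, and MTRF1L had 1.03. Of 20 other import and folding genes, 5 were in the table, 2 called higher and 2 lower. MIPEP, a peptidase that trims imported proteins, averaged 2.67 ± 0.0659 FPKM in bufotalin and 9.54 ± 0.617 FPKM in control libraries. PAM16, of the import motor that TIMM44 anchors, averaged 10.3 ± 1.04 FPKM in bufotalin and 26.6 ± 3.21 FPKM in control libraries. MTX3, a metaxin of the outer membrane, rose (0.85).

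Of 4 mitochondrially encoded genes in the table, 1 was called lower and 3 had no call. MT-CO1, the catalytic subunit of complex IV, averaged 657 ± 252 FPKM in bufotalin and 2424 ± 733 FPKM in control libraries (limma log2 fold change -1.90). MT-CO2 (-1.26) and MT-CO3 (-1.20) had overlapping groups and no call, but both were called in 5 of 12 alternatives. Among those 5 were the fits without bufotalin replicate 3 and without control replicate 3. MT-ND6 had 0.31 without a call. It was called higher after scaling to equal medians (0.50) and without control replicate 2, and had -0.17 without a call under quantile normalization. Of 7 cytosolic ribosomal protein genes in the table, 6 were tested, 1 was called higher and 2 lower, with a median log2 fold change of 0.32 against 0.83 for MRPL and 0.92 for MRPS. No test of these differences between lists was made.

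Genes used as markers of other cells also differed between these libraries, in a comparison where 44.3% of all genes tested were called higher and 48.8% lower. The tumours are xenografts, and the processing notes name the human genome GRCh38 and no host genome. These values therefore cannot be read as amounts of host cells. The 7 listed fibroblast markers of 9 had a summed level of 23.8 to 29.2 FPKM in bufotalin and 82.6 to 87.1 FPKM in control libraries, and all 6 tested were called lower, except PDGFRB under quantile normalization (0.09). The 2 listed endothelial markers of 5 summed to 8.46 to 10.6 FPKM in bufotalin and 32.2 to 33.7 FPKM in control libraries, of which EGFL7 was called lower (-1.84) and CDH5, at a mean of 0.943 FPKM in bufotalin and 0.0657 FPKM in control libraries, higher. The 2 listed leukocyte markers of 4 summed to 4.61 to 6.82 and 3.16 to 3.46 FPKM in bufotalin and control libraries. DES, of 5 muscle markers, was at most 0.0881 FPKM in bufotalin and at least 1.59 FPKM in control libraries. Of 11 hepatocyte and liver tumour markers only TF was in the table, at up to 0.0402 FPKM in bufotalin and listed at 0 in all 3 control libraries. The only listed marker was thus near 0 in every library and did not bear out the labelled liver cell type. The other markers of that list were not in the table, so the cell type could not be checked further here. Of 3 erythroid markers only HBB was in the table, at 0.367 to 0.552 FPKM in the 3 bufotalin libraries and 0.537, 0.47 and 13.4 FPKM in control replicates 1, 2 and 3. Control replicate 3 is also the library with the lowest value of its group for 22 of the 36 genes. Whether the marker values come from host cells or from the tumour line was not tested, nor was any part of other cells in the values of the set.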

How the data were processed

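Total RNA of 3 bufotalin and 3 control libraries was analysed, grouped by sample title. Per the labels' protocols, TRIzol was used for extraction and a NEBNext Ultra kit for the libraries. The authors deposited FPKM values per gene and per lncRNA transcript, for features they selected as different. The submitters' processing notes name GRCh38, the read tools CASAVA 1.8 and fastp, the aligner HISAT2 2.0.5, the counter featureCounts 1.5.0-p3, and DESeq2 1.20.0. The sources used here state neither which tool made the values, nor the selection rule, nor the strandedness.

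The depth of the libraries is unknown. Ratios of low FPKM values rarely repeated between libraries (at most 9 of 231 for 1 ratio), so no counts were recovered and no counting interval is given. Summed FPKM of the 4988 listed genes was 114207 to 121337 in bufotalin libraries and 102677 to 105803 in control libraries. These sums leave out all genes that were not listed.

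Genes averaging 0.5 FPKM or more were tested with limma 3.58.1 (R 4.3.3, trended and robust eBayes) on log2(FPKM + 1), two-sided, with Benjamini-Hochberg adjustment over the 4273 genes tested and a threshold of 0.05. Fold changes on this scale understate low genes. Alternatives were a pseudocount of 0.1, no minimum, scaling to equal medians, quantile normalization, limma without trend, the replicate number as a block, and each library left out. Gene loci were compared with RefSeq genes of GRCh38.p14, where all 36 genes matched. Python 3.11.15, numpy 2.4.6, pandas 2.3.3 and matplotlib 3.10.9 were also used.

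The genes, the related lists and the markers were chosen with earlier results of these data known. Every gene of the set could be named. Values per library are given for up to 3 genes of each name prefix with the largest absolute log2 fold change and a mean of at least 1 FPKM, and for genes against the direction of their class. TIMM13 was added after its values were seen. From related lists up to 3 genes with the smallest p are named. GABPB1, GABPB2, YY1, ACAD9, TMEM126B, DMAC2 and the genes at overlapping loci were named after their values were seen. The small RNA table was not used here.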

Additional observations from a re-analysis of the deposited data

Results flagged for a closer look

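In the authors' lncRNA table of 536 selected transcripts, 7 carried gene names that fit the name rule. The noncoding transcripts SDHA-203 and ATP5MF-210 were flagged because every bufotalin value was above every control value in data outside the mRNA comparison. The flag looked only for higher values, and MRPS16-203 and SDHAF3-203 lay fully below control in bufotalin libraries. These transcripts too were selected as different, and the share of all listed transcripts without overlap was not computed. The flag is thus no evidence of a treatment effect. SDHA-203, of the gene for the flavoprotein of complex II (chromosome 5, 249054 to 256679), had 5.24, 6.13 and 6.47 FPKM in bufotalin libraries, a mean of 5.95, and was listed at 0 in all 3 control libraries. ATP5MF-210, of an ATP synthase membrane subunit gene, had 0.0152, 11.3 and 0.81 FPKM in bufotalin libraries, a mean of 4.05 that rests on replicate 2, and 0.00663, 0.00508 and 0.00626 FPKM in control libraries. Neither gene was among the 36 genes of the mRNA table. These transcript values have no test here.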

How the results depend on the processing

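Of the 30 called genes, 18 kept their call in all 12 alternatives. Over the 36 genes and 12 alternatives, 380 of 432 values kept direction and call, 35 lost the call, 14 gained it and 3 changed sign, all under quantile normalization: COX6A1 (-0.077), UQCRC1 (-0.11) and NDUFAF4 (0.016). Calls in the set were 20 to 29 higher and 3 to 5 lower across the alternatives, and the median log2 fold change was 0.57 to 0.81. The median of all genes tested moved from 0.13 to 0.31 with equal medians, where that of the set was 0.51 above it, and to 0.05 under quantile normalization (0.65 above it). It was -0.14 with no minimum, and -0.17, -0.06 and -0.27 without bufotalin replicate 1, 2 and 3. The set's median lay 0.40 to 0.94 above it across the alternatives. This distance depends on an overall median that lies between the genes above 0 and those below it.

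Class medians that moved by more than the replicate SD were those of MRPS (1.01 with a pseudocount of 0.1, 1.09 with equal medians, 1.04 under quantile normalization, 0.83 without control replicate 1 and 1.09 without control replicate 2, the lowest and highest with a library left out), NDUF (-0.80 with equal medians and -0.73 under quantile normalization), and, under quantile normalization, ATP5 (0.27), SDH (0.90) and UQCR (0.13). With the replicate number as a block, 25 genes of the set were called higher and 4 lower, ending the calls of ATP5PF and COX10 and adding that of TOMM6. Deviations of same-numbered libraries correlated at -0.017, 0.026 and -0.052, and the labels do not say what a number marks, so the numbers were not treated as pairs. Depth is unknown, so low genes such as COX18 and TIMM10B carry a counting error that cannot be given.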

Other observations

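Of the other noncoding transcripts whose gene names fit the rule, that of NDUFB5, a complex I subunit gene, had 0.219, 0.373 and 0.254 FPKM in bufotalin libraries and 17.8, 19.5 and 0.227 FPKM in control libraries. Control replicate 3 thus lay within the bufotalin range while the other controls were far above it. ATP5PB-204 was listed at 0 in every library except control replicate 3, where it had 95.4 FPKM. SDHAF3-203 was listed at 0 in all 3 bufotalin libraries and had 1.11, 1.42 and 0.528 FPKM in control libraries. ATP5F1A-214 was listed at 0 in all 3 bufotalin libraries and had 0.405, 0 and 3.71 FPKM in control libraries. None of these was tested.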
